A study of Sorghum bicolor with 12 samples.

Results

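Sorghum leaves that had gone without water for 3 days and were then held at 50°C for 3 h (combined stress) were set against leaves of watered plants held at 28°C for 3 h (control). Both groups were leaf RNA of the Sorghum bicolor variety R16, with 6 plants per treatment and water withheld from 14 days after sowing in the unwatered ones. RNA came from young leaves, combined within a treatment set before extraction. Each group had 3 Agilent 1-colour arrays, stated to be biological replicates, out of 12 in the series. The other 6 arrays, 3 of watered plants at 50°C (heat) and 3 of unwatered plants at 28°C (drought), were used here to show where combined stress differed from each single stress. The incubation was held in the dark so that light did not differ between treatments.

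The comparison covers every transcript whose spots were all well above background on the 3 arrays of combined stress or on the 3 arrays of control. That was the case for 21992 of the 28587 transcripts on the array. Of these, 19511 passed on all 6 arrays, 860 passed on all 3 arrays of combined stress but not of control, and 1621 passed on all 3 arrays of control but not of combined stress. The last 2 kinds lay close to the limit of measurement, with median log2 levels of -5.69 in combined stress and -5.77 in control, against -1.01 in combined stress and -0.91 in control for the transcripts that passed on all 6 arrays. A further 1102 transcripts passed on 2 of the 3 arrays of either group at best and were left out, with median log2 levels of -6.12 in combined stress and -6.68 in control. A log2 level is the log2 signal of the brightest probe of a transcript minus the 75th percentile of its array, so that 0 marks that percentile and levels of different transcripts are not comparable.

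High temperature unfolds proteins, and plant cells answer through heat shock factors, which switch on chaperones that hold, refold or dissolve damaged proteins. Loss of water acts largely through abscisic acid (ABA), a hormone whose signal runs from receptors through PP2C phosphatases and SnRK2 kinases to bZIP factors, and which closes stomata and induces protective hydrophilic proteins such as late embryogenesis abundant (LEA) proteins. The gene names and most of the roles given below come from the most similar gene of Arabidopsis, and a role in sorghum was not measured.

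Arrays of combined stress were dimmer than those of control, with median signals of 222 to 298 in combined stress and 413 to 542 in control. The shares of spots well above background overlapped, at 77.4%, 74.995% and 79.2% in combined stress and 84.1%, 76.7% and 77.4% in control, and no spot was saturated. Measured against the spike-in RNA added to each sample, the 75th percentile lay at -0.72 to -0.41 in combined stress and at -0.07 to 0.43 in control on the log2 scale. Scaling the arrays to the spike-in RNA instead of to their own 75th percentile therefore lowered every log2 difference of combined stress from control by 0.79, from heat by 0.68 and from drought by 0.92. Of 9 leaf markers, 7 were well above background on all arrays of both groups. PPDK was so on 1 of 3 arrays in combined stress, and NADP-malic enzyme 1 on 1 of 3 in control. Among the 7 were Rubisco small subunit (RBCS1A, Sb05g003480.1) at 1.54 to 3.79 in combined stress and 3.56 to 4.83 in control, and photosystem II subunit R (PSBR, Sb02g002830.1) at 6.86 to 7.20 in combined stress and 3.91 to 4.57 in control.

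Combined stress moved about 2 of every 5 transcripts tested. limma called 4281 transcripts higher and 4542 lower in combined stress than in control, at an adjusted p under 0.05 with more than a 2-fold difference. These were 19.5% and 20.7% of the transcripts tested, and 13169 (59.9%) were not called. With spike-in scaling the split was 2403 higher and 10066 lower, so that 19.3% of the calls were rises instead of 48.5%, and the median log2 ratio of all transcripts tested was -0.89 instead of -0.10. The median log2 ratio was 2.02 among the rises and -1.64 among the falls. A difference of over 8-fold was seen in 1048 rises and 344 falls, but in 625 rises and 979 falls under spike-in scaling, so which side held more of them turned with the scaling. A difference of over 32-fold was seen in 318 rises and 14 falls, and in 201 and 55 under spike-in scaling. Signal over background limits both sides, since 790 rises and 838 falls were measured reliably in 1 of the groups only, which leaves a lower bound on the change. With those transcripts at their bounds the medians were 1.96 and -1.55.

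The 3 pairs of arrays that shared a replicate number, and with it a slide, gave similar sizes. The rises had median log2 ratios of 2.30, 1.97 and 2.04 in replicates 1, 2 and 3, and the falls had -1.70, -1.5 and -1.81. Of the rises, 4215 of 4281 were higher in all 3 pairs, and of the falls 4519 of 4542 were lower in all 3. The calls were made from these same arrays, so such agreement was largely set by the selection. The stricter rule of the study's methods, a difference of more than 2-fold in the same direction in all 3 pairs, passed 2989 transcripts higher (13.6%) and 2793 lower (12.7%), of which 2982 and 2774 were also limma calls. The median SD of the 3 log2 ratios was 0.42, and the median SD of a level between arrays was 0.40 in combined stress and 0.23 in control.

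**Figure D1:**
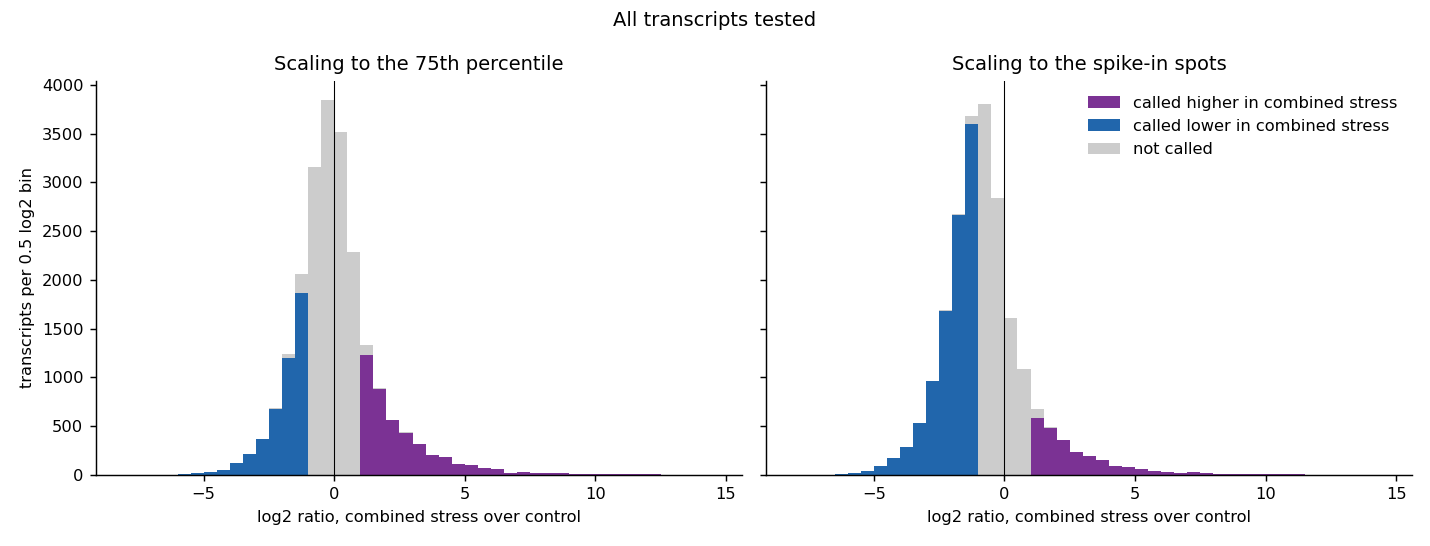
Log2 ratio of combined stress over control for the 21992 transcripts tested, in bins of 0.5, with the number of transcripts on the vertical axis, scaled to the 75th percentile (left) and to the spike-in spots (right). Colours mark transcripts called higher, called lower and not called by limma. The right tail is longer than the left in both panels, while the bulk is centred at -0.10 on the left and at -0.89 on the right.

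Gene names were joined for 2965 transcripts, of which 2201 carried an annotation and 2113 of those were tested. Among these 2113, 1324 (62.7%) rose and 541 (25.6%) fell, with a median log2 ratio of 2.04. Names were joined only through the lists of transcripts that the study gave as changed by drought or by heat, against the same control arrays, and part of the heat list was used. The counts within the gene groups below are therefore a description of named transcripts, no independent evidence of direction, and are best read beside these 62.7% and 25.6% as well as the 19.5% and 20.7% of all transcripts.

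The largest rises were those of the heat shock response. Of 24 small heat shock proteins, which bind unfolding proteins and keep them from clumping, 23 rose and 1 fell, with a median log2 ratio of 8.69. HSP22.0 (Sb06g017850.1) had log2 levels of 8.35, 7.44 and 8.35 in combined stress and of -6.66, -5.73 and -4.97 in control. Drought left it at -4.23, -3.41 and -5.07, so the high level went with the 50°C arrays alone. HSP18.2 (Sb03g006920.1) had levels of 7.78, 6.96 and 8.26 in combined stress and -3.61, -4.06 and -3.94 in control, a log2 ratio of 11.54 ± 0.33 (SE, limma, n = 3 each) with an adjusted p of 2.16e-07. The class I protein HSP17.6C (Sb04g030135.1) had 4.41, 3.23 and 6.01 in combined stress and did not stand well above background in any control sample, a rise of at least 2997-fold. Several small heat shock protein genes are near-identical neighbours, such as Sb04g007585.1 and Sb04g007600.1 or Sb01g039990.1 and Sb01g040000.1, and their probes may share signal. The single member that fell, a 26.5 kDa class P-related protein (Sb02g034760.1), had levels of -3.45, -3.14 and -3.25 in combined stress and -1.61, -0.24 and -0.32 in control.

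The named ATP-driven chaperones, all 36 of them in the study's heat list, rose without exception. All 36 members of the HSP100, HSP90, HSP70 and chaperonin group were called higher, with a median log2 ratio of 4.10 and none below 1.97, and all 36 calls held under spike-in scaling. HSP90.1 (Sb06g000660.1) had levels of 8.35, 7.84 and 8.62 in combined stress and -4.99, -3.37 and -1.95 in control, a log2 ratio of 11.71 ± 0.49 with an adjusted p of 9.08e-07. BIP1 (Sb01g010460.1), in Arabidopsis an HSP70 of the endoplasmic reticulum, had 2.59, 1.89 and 3.92 in combined stress. It did not stand well above background in any control sample, a rise of at least 853.4-fold. The smallest rises of the group were still about 4-fold.

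Co-chaperones were more mixed. Of 18 DNAJ, BAG and related proteins, which feed clients to HSP70 or release them, 15 rose and 1 fell. BAG5 (Sb05g018030.1) had levels of 4.59, 4.44 and 6.16 in combined stress and -5.32, -4.05 and -4.93 in control, a log2 ratio of 9.83 ± 0.49 with an adjusted p of 1.88e-06. The 1 that fell, a DNAJ-domain protein (Sb07g022220.1), had levels of -3.37, -1.81 and -2.03 in combined stress and 2.69, 1.59 and 2.64 in control, and its call was lost without replicate 1 (log2 ratio -4.04). An FKBP-type peptidyl-prolyl isomerase (Sb10g012970.1), an enzyme that turns proline bonds during folding, had one of the largest ratios measured on all 6 arrays, 12.59 ± 0.26, with levels of 7.28, 6.63 and 7.83 in combined stress and -5.62, -5.63 and -4.77 in control. FTSH6 (Sb10g008130.1), an ATP-dependent protease of the chloroplast, had 7.68, 6.55 and 7.83 in combined stress and -3.77, -4.63 and -2.32 in control.

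Of 11 heat shock factors, the coactivator MBF1C among them, 10 rose, with a median log2 ratio of 6.32. MBF1C (Sb10g023010.1), which Arabidopsis needs for heat tolerance, had levels of 7.63, 7.04 and 8.03 in combined stress and -2.30, -1.93 and -1.25 in control, a ratio of 9.40 ± 0.24 with an adjusted p of 1.50e-07. HSFA6B (Sb01g046350.1) rose by 8.18 ± 0.59 and HSFA2 (Sb10g022340.1), which in Arabidopsis sustains the heat response, by 6.71 ± 0.55. Both factors of class C1 rose, by 6.32 ± 0.27 (Sb04g008300.1) and 4.19 ± 0.32 (Sb10g021800.1), but they differed in which stress they followed. Sb04g008300.1 had levels of 2.0, 0.80 and 2.23 in combined stress, -2.78, -2.92 and -1.82 in heat, 2.03, 1.34 and 3.44 in drought and -4.73, -5.09 and -4.11 in control. Its level in combined stress thus overlapped drought and lay above all heat arrays. Sb10g021800.1 had 4.82, 4.61 and 5.36 in combined stress, 3.22, 3.64 and 4.60 in heat, 1.45, 1.20 and 2.32 in drought and 0.79, 0.95 and 0.49 in control, so that it lay nearer to heat.

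**Figure D2:**
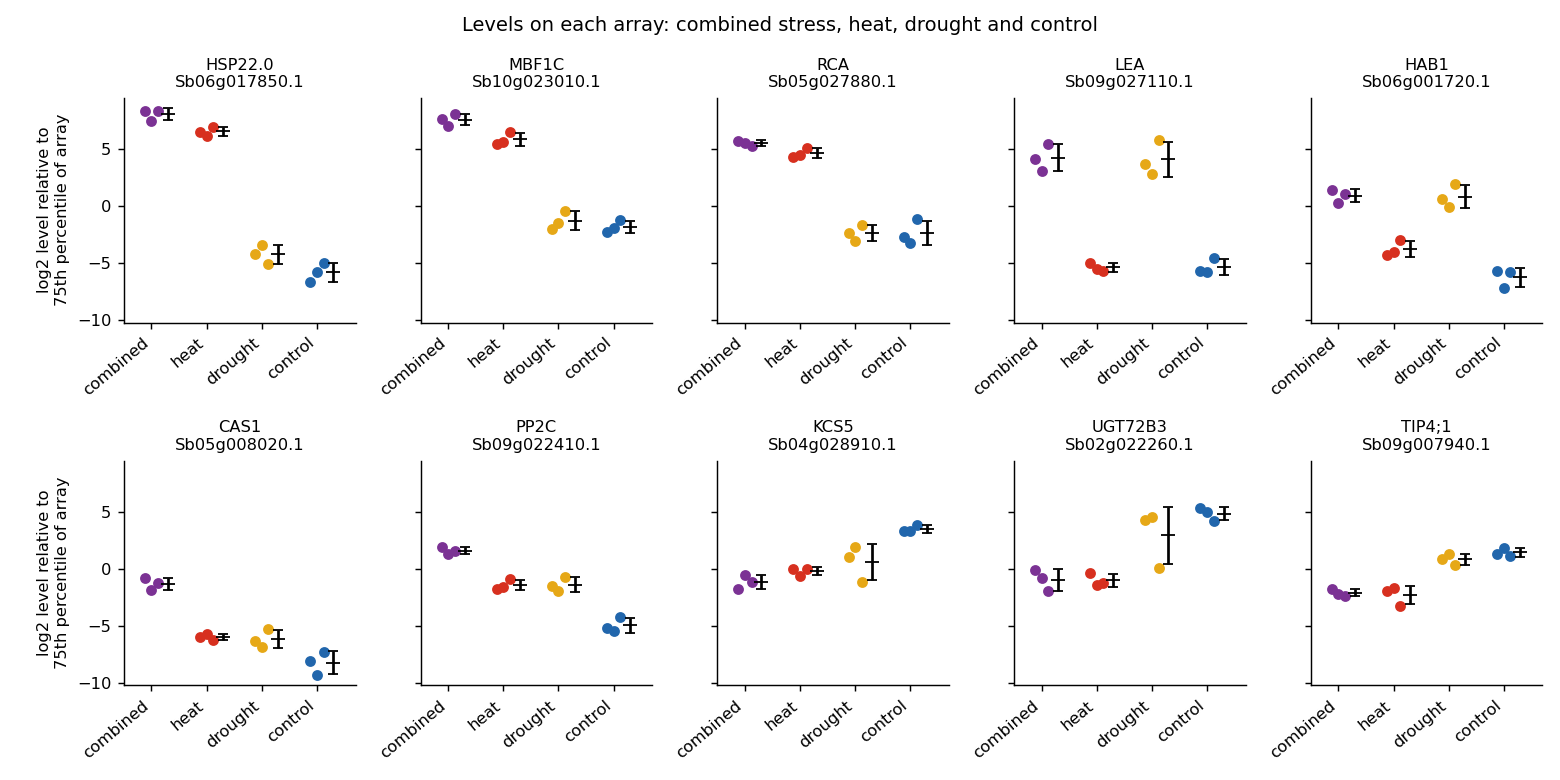
Log2 level relative to the 75th percentile of the array for 10 transcripts on each of the 12 arrays, with the groups combined stress, heat, drought and control along each panel. Points are arrays, in the order of replicates 1 to 3, and the bars give the mean and SD of the group (n = 3). HSP22.0, MBF1C and RCA are high on all arrays at 50°C, LEA and HAB1 on all arrays without water, and CAS1 and PP2C are higher in combined stress than in any other group.

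The proteins and enzymes of water loss formed the other large block of rises. Of 19 LEA proteins and dehydrins, hydrophilic proteins that protect membranes and proteins in drying cells, 17 were tested and all 17 rose, with a median log2 ratio of 6.44, or 6.15 with the dim ones at their bounds. The LEA protein Sb09g027110.1 had levels of 4.14, 3.11 and 5.47 in combined stress, -4.95, -5.49 and -5.67 in heat, 3.69, 2.79 and 5.78 in drought and -5.66, -5.81 and -4.56 in control. Heat without water loss left this transcript at the control level, while combined stress and drought overlapped. The dehydrin RAB18 (Sb09g018420.1), an ABA-responsive protein, rose by 8.52 ± 0.36, and LTI65 (Sb01g017695.1) by 6.15 ± 0.46. ERD10 (Sb04g032250.1) rose by 5.63 ± 0.34 and differed from the others, since it was higher than in drought by 1.95 (adjusted p 0.00231) and did not pass the test against heat (0.89, adjusted p 0.0927).

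Of 21 genes of ABA metabolism and signalling, 17 rose and 2 fell, with a median log2 ratio of 4.30, or 3.65 at the bounds. The rises held both the enzyme that limits ABA synthesis, NCED3 (Sb01g013520.1, at least 43.1-fold higher), and an enzyme that breaks ABA down, CYP707A4 (Sb02g026600.1, log2 ratio 5.86 ± 0.64). They also held PP2C phosphatases, which switch ABA signalling off, and the kinase OST1 and the factor ABF2, which carry it forward. HAB1 (Sb06g001720.1), a PP2C, had levels of 1.40, 0.29 and 1.03 in combined stress and -5.72, -7.20 and -5.80 in control, a rise of at least 135.7-fold. OST1 (Sb01g028760.1), the kinase that Arabidopsis guard cells need to close stomata, had 1.45, -1.02 and 2.07 in combined stress and -2.16, -3.31 and -3.0 in control, a ratio of 3.65 ± 0.47. The study gives OST1 as raised by combined stress only. This transcript was named through its drought and heat lists and may be another copy. ABF2 (Sb04g034190.1) rose by 4.03 ± 0.31. The 2 that fell were ABA2 (Sb06g009610.1), a dehydrogenase of ABA synthesis, at least 3.54-fold lower, and a PP2C (Sb01g043430.1) with a ratio of -1.89 ± 0.40.

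All 9 genes of the osmolyte and raffinose group rose, with a median of 5.65, or 3.91 at the bounds, and 8 did so under spike-in scaling. SIP2 (Sb02g006320.1), an alpha-galactosidase acting on raffinose in Arabidopsis, had levels of 5.70, 4.96 and 5.98 in combined stress and -1.63, -2.0 and -1.58 in control. The galactinol synthase GolS1 (Sb01g037090.1), the first step towards raffinose, had 7.90, 6.98 and 8.12 in combined stress, 6.54, 6.85 and 7.25 in heat, 5.56, 3.26 and 6.29 in drought and 1.37, -0.10 and 0.49 in control. Each stress thus raised GolS1, whereas SIP2, at 5.74, 5.37 and 6.32 in drought and 1.07, 1.36 and 1.34 in heat, followed water loss more closely.

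Of 6 oleosins and caleosins, proteins that coat oil droplets, 5 were tested and all rose, with a median of 3.15. Both markers of seed and embryo moved with them and with the LEA proteins. The oleosin OLEO1 (Sb01g050670.1) had levels of -0.23, -1.95 and -0.13 in combined stress, a rise of at least 77.3-fold. The storage protein PAP85 (Sb01g012640.1) lay between -2.98 and 0.20 in combined stress and between -8.90 and -7.22 in control. Each was well above background on all arrays of combined stress and on none of control. Of the markers of guard cells, OST1 rose as above the KAT1 transcript Sb04g008780.1 did not pass the test (0.64 ± 0.52, adjusted p 0.315), and another, Sb03g034980.1, was too dim to be tested. The part of a changed mix of cells in these results was not tested, and in bulk leaf tissue fewer cells of a type and less RNA per cell cannot be told apart.

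Among genes of photosynthesis the named members went both ways. Of 6 tested, 3 rose and 3 fell, with a median of 0.56 that turned to -0.23 under spike-in scaling, and 1 was called lower without replicate 1. Rubisco activase (RCA, Sb05g027880.1), which frees Rubisco of bound sugar phosphates, had levels of 5.73, 5.53 and 5.22 in combined stress, 4.31, 4.45 and 5.11 in heat, -2.35, -3.02 and -1.63 in drought and -2.68, -3.23 and -1.16 in control. The level was high on every 50°C array and at the control level in drought. ELIP1 (Sb02g004380.1), an early light-inducible protein that binds chlorophyll, rose by at least 69.5-fold, and PSBR rose by 2.89 ± 0.19. The antenna protein LHCB6 (Sb06g032690.1) had -0.23, 1.63 and -1.94 in combined stress and 1.12, 2.71 and 2.28 in control, so the groups overlapped and the fall was called only within slides (-2.22 ± 0.61, adjusted p 0.0124). RBCS1A fell by 1.77 on the log2 scale (SE 0.48, adjusted p 0.0119) and a photosystem II family protein (Sb01g036240.1) by 3.61 (SE 0.72, adjusted p 0.00264).

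Transcripts named after enzymes of the C4 cycle, which concentrates carbon dioxide around Rubisco in sorghum leaves, were not changed in 1 direction either. Phosphoenolpyruvate carboxylase transcripts rose, PPC1 (Sb02g021090.1) by 5.29 ± 0.39 and PPC3 (Sb04g008720.1) by 2.66 ± 0.37. NADP-malic enzyme 1 (Sb03g034280.1) lay between 0.46 and 3.58 in combined stress and between -7.70 and -6.26 in control, where 1 of 3 arrays was well above background. A PPDK transcript (Sb01g031660.1) was called lower, at -8.48 to -5.59 in combined stress and -5.79 to -4.63 in control, with 1 array of combined stress well above background and the ranges overlapping. These names are those of the nearest Arabidopsis gene, and which of the copies serves the C4 cycle was not determined here.

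Named detoxifying enzymes mostly rose, at shares not far from the 62.7% of all named transcripts tested, whose median was 2.04. Of 23 glutathione transferases, which couple glutathione to reactive compounds, 17 rose and 3 fell (median 2.52), with GSTF13 (Sb01g001230.1) at 3.83, 3.63 and 3.63 in combined stress and -3.59, -2.59 and -1.70 in control. Of 64 cytochromes P450 tested, 46 rose and 12 fell (median 1.71), and of 48 UDP-glucosyl transferases 33 rose and 6 fell (median 1.78), but under spike-in scaling these counts were 31 and 15, and 20 and 10. Without replicate 1 the P450 falls numbered 7 and the rises of glucosyl transferases 16. Near relatives parted ways. The annotation CYP71A25 stood for a transcript at least 161-fold higher (Sb07g000520.1) and for another at least 38.4-fold lower (Sb03g007550.1). UGT72B3 (Sb02g022260.1), which attaches glucose to small molecules, had one of the largest falls, with levels of -0.12, -0.85 and -1.98 in combined stress and 5.31, 4.93 and 4.17 in control (-5.79 ± 0.71, adjusted p 0.000218).

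Peroxidases, catalase and superoxide dismutase were split, with 8 rises and 9 falls among 21, and a median of 0.28 whose sign turned under spike-in scaling (-0.51), under quantile normalization (-0.032) and without replicate 1 (-0.23). The ascorbate peroxidase APX3 (Sb06g001970.1), which removes hydrogen peroxide, had 4.54, 3.35 and 4.80 in combined stress and -4.63, -4.39 and -4.19 in control. Peroxidase 21 (Sb09g018150.1), by contrast, was at least 17.4-fold lower.

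Most of the named water channels rose. Of 13 aquaporins, 12 rose and 1 fell, with a median of 1.95, and 11 rose under spike-in scaling. PIP2B (Sb04g026650.1), a channel of the plasma membrane, had levels of 5.42, 4.98 and 4.02 in combined stress and 0.58, 1.86 and 2.0 in control (3.32 ± 0.47). A row of PIP2B genes from Sb02g010760.1 to Sb02g010830.1 rose by 1.93 to 2.32, and since these are near-identical they may share one signal. TIP4;1 (Sb09g007940.1), a channel of the vacuole, fell instead, with -1.73, -2.18 and -2.35 in combined stress and 1.33, 1.84 and 1.11 in control (-3.51 ± 0.27, adjusted p 1.90e-05). It was at -1.93, -1.71 and -3.23 in heat and at 0.88, 1.31 and 0.33 in drought, so the 50°C arrays overlapped and stood below the others.

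Of 28 potassium and other ion transporters, 10 rose and 15 fell (median -1.20, or -1.02 at the bounds), with 6 rises without replicate 1. The cation exchanger CAX7 (Sb08g022240.1) rose by 4.48 ± 0.35 and the vacuolar sodium exchanger NHX2 (Sb02g042190.1) by 3.72. HKT1 (Sb06g027900.1), a sodium and potassium transporter, was at least 18.7-fold higher. The high-affinity potassium transporter HAK5 had a pair of transcripts. Sb07g027710.1 was not well above background in combined stress, and its fall of at least 1.33-fold became a log2 ratio of 0.20 with another background correction, while Sb06g014930.1 did not pass the test (-0.88 ± 0.34, adjusted p 0.0526). Neither shows a change that is settled at this signal. The study gives HAK5 as raised by combined stress only. Names here came from its drought and heat lists, so these may be other copies.

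**Figure D3:**
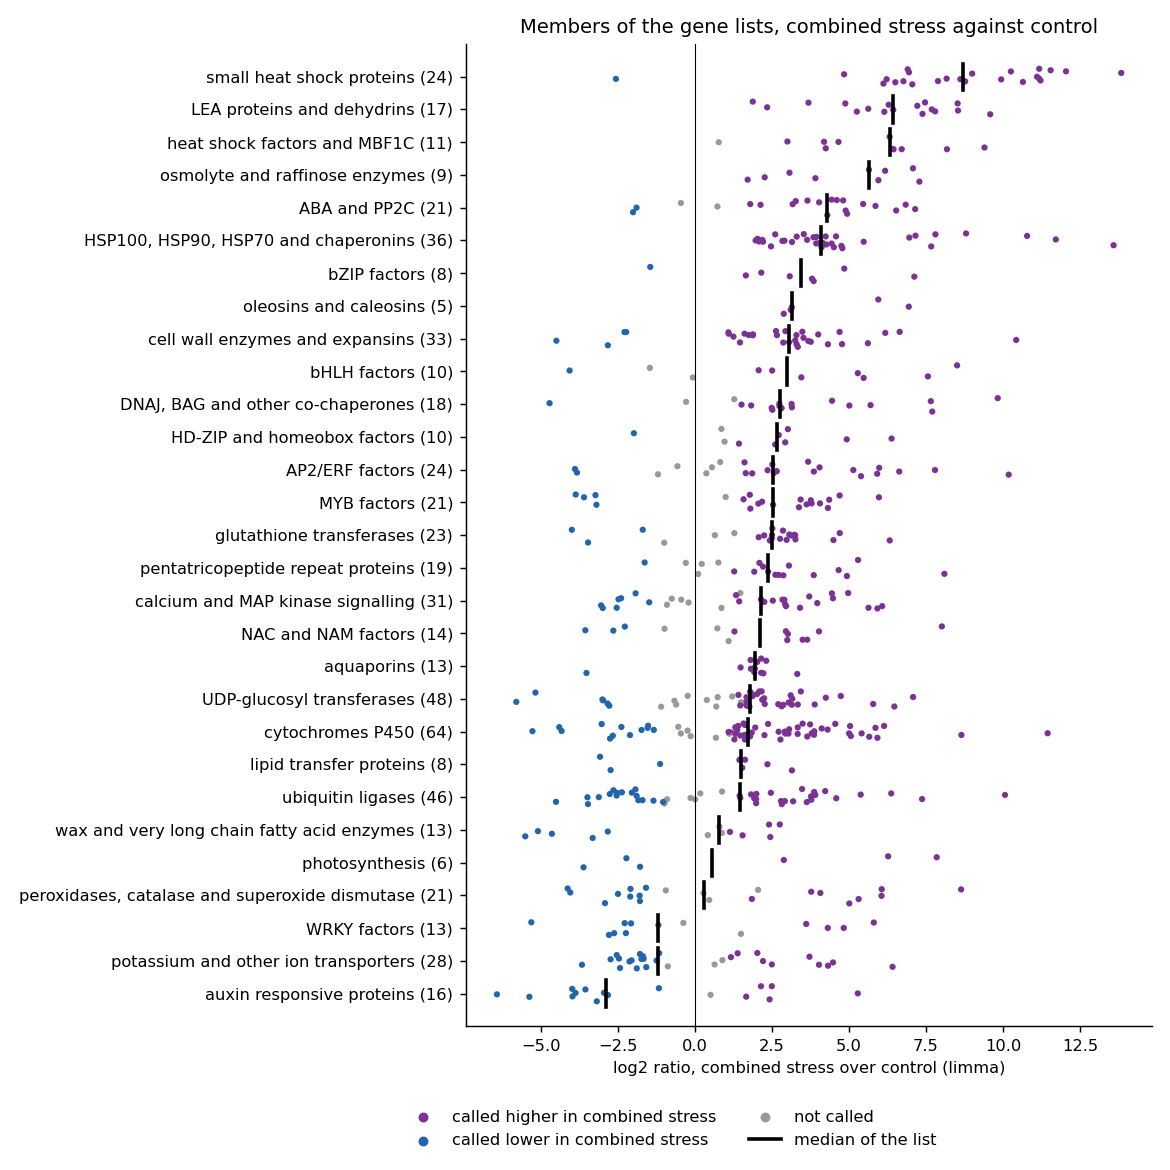
Log2 ratio of combined stress over control (limma) for every tested member of the 29 gene lists, ordered by the median of the list, with the number of members in brackets. Colours mark transcripts called higher, called lower and not called, and the black bars are list medians. The medians run from 8.69 for small heat shock proteins to -2.88 for auxin responsive proteins.

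Of 16 auxin responsive proteins, a family that includes early transcriptional targets of the growth hormone auxin, 10 fell and 5 rose. Without replicate 1, 3 rose. Their median was the lowest of all lists, at -2.88, or -1.83 at the bounds. With another background correction (normexp) 8 fell and the median was -0.91. Sb02g031700.1 had levels of -2.96, -4.20 and -7.70 in combined stress and 2.29, 1.07 and 1.03 in control, and was at least 63.5-fold lower. Sb02g031710.1 beside it was at least 33.7-fold lower. The exceptions included SHY2 (Sb01g005110.1), in Arabidopsis a repressor of auxin responses, with -0.58, -1.77 and -0.35 in combined stress and -4.78, -6.73 and -7.05 in control, at least 35.8-fold higher.

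Of 13 enzymes of wax and very long chain fatty acids, 5 rose, or 3 under spike-in scaling, and 5 fell. The 3-ketoacyl-CoA synthases, which lengthen fatty acids for the cuticle, held all 5 falls and 3 of the rises, with KCS4 (Sb09g028860.1) at 2.45 ± 0.41. KCS5 had a transcript at -1.79, -0.56 and -1.15 in combined stress and 3.26, 3.30 and 3.84 in control (Sb04g028910.1, -4.63 ± 0.65) and another with a ratio of -5.09 ± 0.73 (Sb10g009450.1). CER1 (Sb01g019590.1), which makes the alkanes of wax, rose by 2.76 ± 0.43, and of 4 CER3 transcripts only Sb02g025220.1 was called, at 1.14 ± 0.28. Of 8 lipid transfer proteins, 5 rose and 3 fell, but 2 were called higher under spike-in scaling and 1 without replicate 1.

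Cell wall enzymes and expansins rose in 29 of 33 cases (median 3.06, or 2.94 at the bounds). A pectinesterase (Sb06g030310.1), which removes methyl groups from pectin, had levels of 6.19, 3.85 and 6.12 in combined stress and -6.39, -5.26 and -3.47 in control, a ratio of 10.43 ± 0.54. A polygalacturonase (Sb04g006610.1), which cuts pectin, was at least 76.1-fold higher. The polygalacturonase inhibitor PGIP1 (Sb09g000440.1), known from defence against fungi, had -0.20, 0.87 and 0.04 in combined stress and 4.62, 5.06 and 5.21 in control (-4.73 ± 0.66). The falls within the list were led by CSLE1 (Sb04g029420.1), a cellulose synthase-like protein, with -4.49 ± 0.39.

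In most families the named transcription factors rose more often than they fell, at shares mostly not far from the 62.7% of all named transcripts tested. Rises and falls numbered 17 and 2 of 24 AP2/ERF factors, 16 and 4 of 21 MYB factors, 8 and 3 of 14 NAC factors, 7 and 1 of 10 homeobox factors, 7 and 1 of 8 bZIP factors and 7 and 1 of 10 bHLH factors, with medians between 2.12 and 3.44. Without replicate 1, 4 homeobox factors rose. RAP2.6 (Sb06g016710.1), an ethylene response factor, had 2.10, 0.97 and 0.03 in combined stress and was at least 274.3-fold above control. ATHB-7 (Sb04g033380.1), a homeobox factor induced by ABA in Arabidopsis, had 2.17, 1.35 and 2.11 in combined stress and -4.73, -4.66 and -4.13 in control. GBF3 (Sb03g030050.1), a bZIP factor that binds the G-box, was at least 93.7-fold higher. WRKY factors, many of which act in defence, had 4 rises and 7 falls among 13 and a median of -1.18. They had 4 and 4 without replicate 1, and 5 and 4 with a median of -0.11 under normexp background correction. WRKY27 (Sb09g029850.1) had -5.86, -3.16 and -6.03 in combined stress and 0.27, 0.33 and 0.27 in control and was at least 39.4-fold lower.

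In signalling and protein turnover, 18 of 31 calcium and MAP kinase genes rose and 7 fell, and 24 of 46 ubiquitin ligases rose and 16 fell. Under normexp the falls numbered 4 and 9. An EF-hand protein (Sb02g024550.1), which binds calcium, had 6.77, 6.53 and 6.81 in combined stress and 0.66, 1.09 and 0.59 in control. MKK9 (Sb01g010180.1), a MAP kinase kinase, was at least 5.15-fold lower, but its call was lost under normexp (log2 ratio -0.81) and with slide position as a factor (-2.54). The MAP kinase MPK20 (Sb03g030450.1) had 4.51, 2.44 and 4.30 in combined stress and 2.33, 2.52 and 2.38 in control. Replicate 2 of combined stress lay within the control range, and the call (1.34 ± 0.39, adjusted p 0.0154) was lost under 6 settings, among them without replicate 1 (0.92), without replicate 3 (1.05), quantile normalization (0.87) and spike-in scaling (0.55). The study gives MKK9 and MPK20 as responding to combined stress only. The transcripts named here came from its drought and heat lists, so they may be other copies. A RING finger protein (Sb02g040220.1), of a family that tags proteins for breakdown, had 8.56, 7.84 and 8.73 in combined stress and 0.77, 1.62 and 0.62 in control. Of 19 pentatricopeptide repeat proteins, which process organelle RNA, 14 rose and 1 fell, with Sb03g041980.1 at least 202.7-fold higher.

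The deepest falls measured on all 6 arrays belonged to transporters, enzymes and secreted proteins. A 33 kDa secretory protein-related transcript (Sb01g039360.1) had -3.39, -3.06 and -4.01 in combined stress and 1.78, 2.52 and 2.02 in control (-5.59 ± 0.91). The peptide transporter PTR1 (Sb03g043020.1) had -3.20, -1.26 and -5.10 in combined stress and 2.06, 2.25 and 2.55 in control (-5.48 ± 1.21, adjusted p 0.00436). The amino acid transporter AAT1 (Sb01g013690.1) had -3.26, -3.56 and -3.76 in combined stress and 1.06, 1.44 and 0.85 in control (-4.64 ± 0.81). The drought arrays enter the same fit, and there replicate 3 stood low. PTR1, for instance, was at 0.24, 1.52 and -4.96 in drought. Replicate 3 was the lowest drought array in 3594 of the 4542 falls (79.1%), against 39.5% of all transcripts tested. Of transcripts with no name joined here, the array entries PACid:1958211 (5.39 ± 0.28) and PACid:1979472 (5.06 ± 0.95) rose most, and PACid:1955298 (-5.06 ± 0.92) and PACid:1959034 (-4.96 ± 0.95) fell most. The spot of PACid:1958211 was flagged on heat replicate 3 and that value was left out of the fit.

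Combined stress was next set directly against each single stress in the same fit, since the comparisons with control share the control arrays. Against heat, 1675 transcripts were higher (7.62%) and 1035 lower (4.71%). Against drought, 3078 were higher (14.0%) and 2533 lower (11.5%). The contrast with heat rests on few arrays. Without replicate 1, 67 transcripts were higher than in heat and none lower by limma, with 908 lower at an unadjusted p under 0.05, and without replicate 3 the counts were 728 and 108. Spike-in scaling gave 712 higher and 6427 lower than heat, and 1372 higher and 10413 lower than drought. The contrast with drought fell to 1299 higher and 766 lower without replicate 1. With slide position as a factor the counts were 1173 and 621. Arrays of combined stress lay at slide positions 1, 1 and 2 and those of drought at 3, 4 and 3. They shared no position, so position and treatment cannot be fully told apart in this contrast.

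Named chaperones stood near heat and named LEA proteins near drought, though the joining of names favours such a split. The study's heat list held 23 of the small heat shock proteins and all 36 larger chaperones tested, and its drought list 8 and 2. All 17 LEA proteins tested were in the drought list and 4 in the heat list. The counts below describe these named transcripts and are no independent evidence of likeness to either stress. Of the 24 small heat shock proteins, 23 were higher than in drought, with a median difference of 8.43 on the log2 scale, while 8 were higher than in heat, with a median of 1.07. Of the 36 larger chaperones, 35 were higher than in drought (median 4.06) and 8 were higher than in heat (median 0.74). Under spike-in scaling 3 members of each list were higher than in heat, while 1 small heat shock protein and 4 larger chaperones were lower. Without replicate 1 none was called on either side, while the medians over heat were 0.80 and 0.60. HSP22.0 itself did not pass the test against heat (1.5, adjusted p 0.0738), whereas the FKBP-type isomerase was higher by 1.75 (adjusted p 0.00477) and MBF1C by 1.73 (adjusted p 0.00411).

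LEA proteins showed the reverse. Of 17, 15 were higher than in heat, with a median difference of 5.31, and 15 were so under spike-in scaling and 8 without replicate 1. Against drought the median difference was 0.15, with 4 higher and 2 lower, or 1 higher and 8 lower under spike-in scaling. The ABA list behaved alike against heat, with 17 of 21 higher (median 2.36), 15 under spike-in scaling and 3 without replicate 1. Against drought 5 were higher and 5 lower. Of these 21 genes, 16 were in the study's drought list and 10 in its heat list. PP2CA (Sb03g029890.1) was lower than in drought by 2.50 on the log2 scale (adjusted p 0.00193) and the PP2C Sb02g034660.1 was higher by 4.13 (adjusted p 1.73e-05), so single phosphatases departed from drought in both directions.

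**Figure D4:**
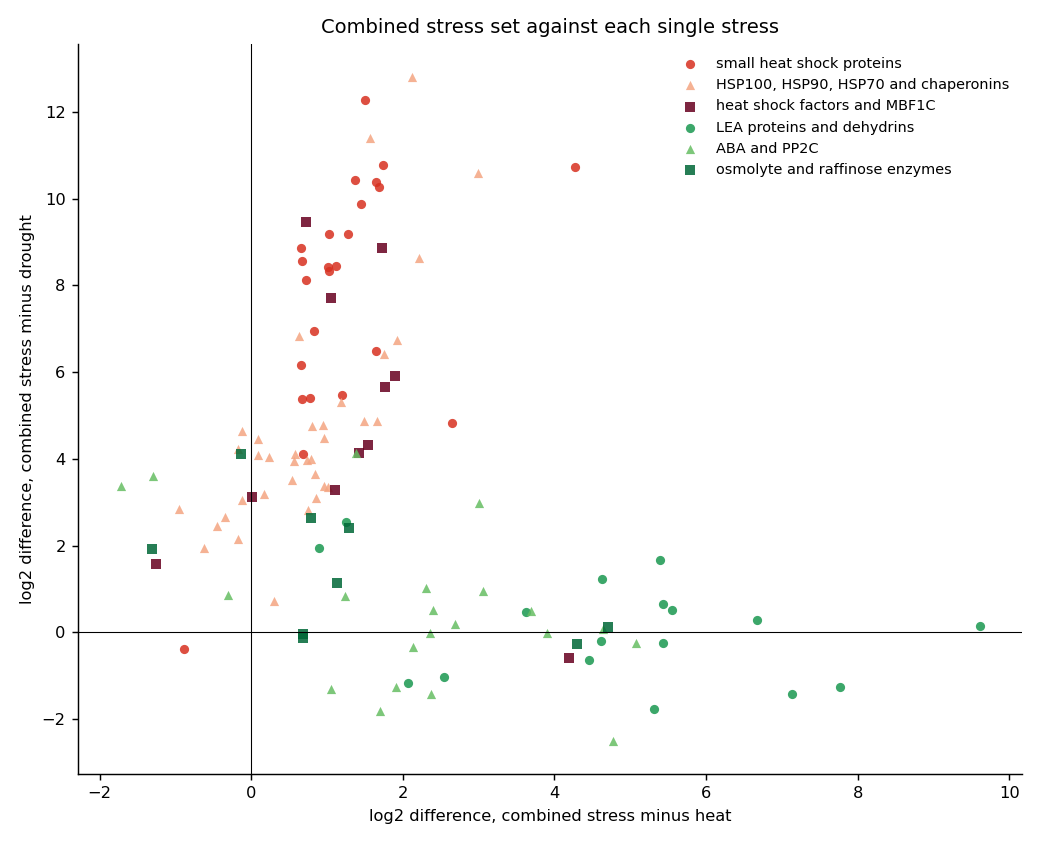
Log2 difference of combined stress minus heat (horizontal) and of combined stress minus drought (vertical), from limma, for the members of 6 gene lists. Small heat shock proteins lie high, with a median of 1.07 on the horizontal axis, LEA proteins lie far right, with a median of 5.31, and near 0 on the vertical axis, and a heat shock factor of class C1 (4.19, -0.59) lies among the LEA proteins.

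A total of 488 transcripts (2.22%) were higher and 283 (1.29%) lower in combined stress than in control, in heat and in drought alike. These counts were the least stable of all. They were 123 and 3676 under spike-in scaling, and 157 and 64 with no replicate block. Leaving out replicate 1 gave 3 and 0, replicate 2 gave 501 and 378, and replicate 3 gave 268 and 45. Of the 488, 184 had a joined identifier and 152 an annotation, and of the 283, 24 and 23. The transcripts described next were chosen after their values were seen, for a wide margin over the nearer of heat and drought or for their role.

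Cycloartenol synthase 1 (CAS1, Sb05g008020.1), which makes the first cyclic precursor of plant sterols, had levels of -0.84, -1.89 and -1.26 in combined stress, -6.00, -5.73 and -6.24 in heat, -6.30, -6.82 and -5.31 in drought and -8.06, -9.30 and -7.32 in control. It was at least 53.3-fold above control, and it exceeded heat by 4.66 (adjusted p 0.00043) and drought by 4.81 (adjusted p 6.51e-05) on the log2 scale. The groups did not overlap, and the differences were 3.98 and 3.89 under spike-in scaling and 4.41 and 4.49 without replicate 1, where the one from heat no longer passed (adjusted p 0.0782) and the one from drought did (0.0119). Another sterol gene, the methyl oxidase SMO1-1 (Sb03g021040.1), exceeded heat by 3.5 and drought by 1.54, but drought by 0.62 under spike-in scaling.

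A PP2C phosphatase (Sb09g022410.1) had 1.93, 1.30 and 1.53 in combined stress, -1.76, -1.63 and -0.89 in heat, -1.55, -1.96 and -0.69 in drought and -5.17, -5.48 and -4.19 in control. Each single stress raised it part of the way, and combined stress lay above heat by 3.01 (adjusted p 0.000516) and above drought by 2.99 (adjusted p 9.54e-05). An F-box protein (Sb07g026340.1), of a family that selects proteins for breakdown, had 3.13, 0.86 and 3.07 in combined stress, -3.60, -2.33 and -3.17 in heat, -1.04, -2.38 and 1.18 in drought, and -7.44, -8.22 and -7.46 in control. Its drought replicate 3 overlapped combined stress replicate 2. ELIP1 exceeded heat by 4.83 and drought by 3.23, and HSP17.6C exceeded heat by 4.27 and drought by 10.74. HSP17.6C was well above background on 1 of 3 drought arrays only, so the size of its difference from drought is uncertain. Without replicate 1, none of these 4 passed against heat, and against drought the PP2C (adjusted p 0.0106) and HSP17.6C (0.00108) did while the F-box protein and ELIP1 did not.

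Transcription factors stood among the rises beyond both stresses. ERF1 (Sb01g000352.1), of the ethylene pathway, had 3.36, 1.92 and 2.78 in combined stress, -0.42, 0.31 and 0.30 in heat, -4.70, -5.71 and -5.04 in drought and -4.72, -5.62 and -4.98 in control. Drought alone left it at the control level, yet combined stress exceeded heat by 2.62 (adjusted p 0.00321). DREB1A (Sb02g030310.1), of the family that binds dehydration and cold response elements, had 1.01, -0.23 and 1.21 in combined stress, -2.18, -2.38 and -0.77 in heat, -6.22, -5.61 and -5.95 in drought and -5.63, -5.29 and -5.03 in control. Here too the drought arrays did not exceed control. Without replicate 1, only 3 transcripts in all were called higher than control, heat and drought alike.

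Among the falls beyond both stresses, WRKY27 was lower than in heat by 2.60 on the log2 scale (adjusted p 0.0295) and than in drought by 3.26 (adjusted p 0.00478). Its levels were -2.40, -2.50 and -2.33 in heat and -1.61, -0.23 and -3.42 in drought, so that combined stress replicate 2, at -3.16, overlapped drought. Auxin responsive proteins recurred, with Sb02g031710.1, Sb02g031830.1, Sb06g028640.1 and Sb02g031780.1 all lower than in each single stress. Sb02g031830.1 had -2.98, -2.49 and -4.04 in combined stress, -0.44, -1.83 and -1.81 in heat, -0.50, -0.30 and -2.21 in drought and 0.77, 0.85 and 0.47 in control. A receptor-like kinase, CRK10 (Sb02g035550.1), had -2.36, -1.74 and -3.21 in combined stress, -0.88, -0.84 and -0.33 in heat, 0.14, 0.25 and -1.81 in drought and 1.87, 1.24 and 1.59 in control. None of these falls was called against heat or against drought without replicate 1.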

How the data were processed

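RNA of the R16 leaves was labelled with Cy3 and hybridised to custom Agilent 4x44K arrays, 3 per treatment. The authors deposited the spot intensity of each array as Agilent Feature Extraction wrote it, background-subtracted and not scaled between arrays, with flags, and a table of log2 values normalised in GeneSpring GX and centred on the median of each probe, which the authors deposited as the series matrix. Columns of the authors' own fold changes were used neither as results nor for comparison.

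The log2 processed intensity minus the 75th percentile of 43803 non-control spots was averaged over the spots of a probe without outlier flags, and the brightest probe stood for a transcript. limma 3.58.1 (R 4.3.3) was fitted to all 12 arrays with 4 group means and the replicate number as a block, because the study compared arrays of equal number. The number marks the slide. Deviations of same-numbered arrays correlated above 0.1 in 17 of 18 pairs (0.04 to 0.62, over 19197 transcripts). The pair at 0.04 was replicate 3 of combined stress and control. P-values were adjusted by Benjamini-Hochberg over 21992 transcripts. A call needed an adjusted p under 0.05 and a log2 difference beyond 1. For a group with an array not well above background, "at least N-fold" compares the brighter mean with a floor, which on each array is the dimmest reliable signal or, if brighter, that of the probe. The number of arrays limits precision. The fits were tested on simulated data.

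Sb identifiers were joined to the 28587 array entries by matching the per-replicate folds in the supplementary tables to the deposited normalised values within 0.0001, used as a key only. The transcripts named were, among annotated ones, the 10 largest rises and falls measured on all 6 arrays and passing both rules, the 5 largest bounds each way, the 2 largest rises and falls of each list with 3 or more members, those the study names for combined stress, and 2 with no joined name each way. Transcripts of genes the study names for combined stress were found by identifier or symbol within its drought and heat lists. They may be copies other than those the study means. Others are named as members of lists or markers, or where the text says that they were chosen after their values were seen. The transcripts, lists and tests were chosen with earlier results of these data known. The alternatives were other scalings (array median, quantile, spike-in), normexp background, the series matrix, flagged spots kept, probe means, other filters, no replicate block, 6 arrays only, slide position, array weights, other thresholds and leaving out each replicate. No sequence or coordinate was used here.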

Additional observations from a re-analysis of the deposited data

How the results depend on the processing

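Against control, 4281 transcripts higher and 4542 lower became 2403 and 10066 with spike-in scaling, while normexp background gave 2808 lower and the adjusted p alone 6825 lower. Leaving out 1 replicate gave 3117 to 4370 higher and 3141 to 4510 lower. Without the replicate block the counts were 4024 and 4283. Under the median, quantile and normexp settings, 54.2%, 44.5% and 58.0% of the calls were rises, against 48.5%.

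Against heat, 1675 higher and 1035 lower became 712 and 6427 with spike-in scaling, 733 and 534 with normexp, and 764 and 268 without the replicate block. Leaving out 1 replicate gave 67 to 1977 higher and 0 to 1521 lower, with replicate 1 the one that mattered most. Against drought, 3078 higher and 2533 lower became 1372 and 10413 with spike-in scaling and 1173 and 621 with slide position as a factor, and normexp gave 1209 lower. Leaving out 1 replicate gave 1299 to 3642 higher and 766 to 3284 lower, and without the block the counts were 2671 and 2197.

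By the fold rule, 2989 higher and 2793 lower became 1734 and 6240 with spike-in scaling and 1919 and 1273 at a threshold of 3, while normexp gave 1689 lower and a threshold of 1.5 gave 4626 lower. Leaving out 1 replicate, with agreement of the other 2, gave 3150 to 3786 higher and 3132 to 3654 lower. Spike-in scaling lowered every list median by 0.79.

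Reversals were few. HAK5 (Sb07g027710.1) had 0.20 under normexp. The median of the peroxidase list was -0.032 with quantile normalization, -0.51 with spike-in scaling and -0.23 to 0.21 with 1 replicate left out. That of the photosynthesis list was -0.23 with spike-in scaling and -1.77 over members well above background in both groups, which leaves out 1 dim rise, ELIP1. All other named ratios kept their direction, 15 named transcripts lost a call under 1 or more settings and 1 gained it. GSTL2 (Sb01g038900.1), PTR1, anac075 (Sb09g006015.1), an F-box protein (Sb06g012290.1), an auxin responsive protein (Sb03g005555.1) and a lipid transfer protein (Sb09g027600.1) lost it without replicate 1, and BZIP61 (Sb03g002050.1, -1.44) under 6 settings. The cause was not tested. Falls whose combined stress arrays lie near background, as those of ABA2 and MKK9, are limited by that signal. Both lost their call under normexp (-0.74 and -0.81) and with slide position as a factor (-1.59 and -2.54).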

Other observations

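Some groups were put together from the annotations after the values were seen and carry no test of the group. Their names too came from the study's drought and heat lists, and of all named transcripts tested 62.7% rose and 25.6% fell. Of 29 nucleotide-binding disease resistance proteins, the intracellular immune receptors of plants, 26 fell and 3 rose in combined stress against control, with a median log2 ratio of -2.83, and 17 fell under normexp background correction. Of these 29, 28 were in the study's heat list and 5 in its drought list. The counts are therefore no independent evidence of direction or of likeness to either stress. Against heat, 1 was higher and 1 lower, and against drought 3 were higher and 18 lower, with 6 lower without replicate 1, 9 without replicate 2 and 5 under normexp. Of 12 wall-associated kinases, receptors that bind pectin at the cell wall, 10 fell, or 4 under normexp, and 1 rose (median -1.66), with WAK5 (Sb06g022700.1) at -3.33 ± 0.45 and adjusted p 0.00035. Of 7 receptor kinases, 4 fell, or 2 under normexp, and 1 rose, and PSKR1 (Sb04g001210.1), the receptor of the growth peptide phytosulfokine, was at least 18.9-fold lower. Of 8 disease resistance-responsive proteins, 6 rose and 2 fell, with 3 rises without replicate 1 and 3 by the fold rule.

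All 4 alternative oxidases, which let mitochondrial electrons bypass the proton-pumping complexes, rose, with log2 ratios of 3.22 to 5.08. AOX1A (Sb06g027430.1) rose by 5.08 ± 0.76, and it stood above drought by 3.7 (adjusted p 0.00505) but not apart from heat by the test (-0.31, adjusted p 0.793). The 3 genes Sb06g027410.1, Sb06g027420.1 and Sb06g027430.1 are neighbours and may share probe signal.

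All 5 amylases and beta-fructosidases, which release sugars from starch or sucrose, rose, with a median of 4.65. Of a pair of beta-amylases both annotated BAM1, Sb01g047500.1 rose by 4.65 ± 0.37 and Sb01g019850.1 by 4.31 ± 0.36, and Sb01g019850.1 was above heat by 4.51 (adjusted p 0.0002) and not apart from drought by the test (0.34, adjusted p 0.48). Of 7 jasmonate ZIM domain proteins and lipoxygenases, 6 rose (median 3.7), with JAZ1 (Sb01g023431.1), a repressor of jasmonate responses in Arabidopsis, at 4.89 ± 0.43, while JAZ10 (Sb03g044485.1) was at least 13.6-fold lower. The 5 universal stress proteins rose, by 1.33 to 3.17 for 4 of them and by at least 4683-fold for Sb04g034630.1.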
